A study of Mus musculus with 4 samples.

Results

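The 37 genes described here act in mitosis, from the entry kinase Cdk1 to the cytokinesis scaffold Anln, and were taken as a named list from the 24530 features (genes and unnamed transcripts) of 4 RNA sequencing libraries. All 37 were found in the count tables, and all 37 passed the filter on low counts, among 13172 features tested. The libraries hold poly(A) RNA of RAW 264.7, a transformed mouse macrophage line. Dnm3os cells stably carried the plasmid pcDNA 3.1(+) with the long noncoding RNA Dnm3os, and empty vector cells stably carried the plasmid alone, with 2 libraries for each. Both lines were grown to passages 3 to 6 with glucose at 5.5 mmol/L, and the labels give no further treatment. The labels do not say whether each stable line is a clone or a pool, or whether the libraries of a group are separate cultures, so p-values measure only the spread between these libraries, which may be technical. The single comparison asks which RNAs differ when the cells carry Dnm3os.

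Mitosis begins when cyclin-dependent kinase 1, bound to cyclin A or B and switched on by Cdc25 phosphatases, phosphorylates chromosomal and spindle proteins. Condensin and topoisomerase II compact the chromosomes, kinetochores attach them to the spindle under the watch of the checkpoint, and the anaphase-promoting complex then destroys cyclin B and securin so that chromosomes part and the cell divides. Most of these genes are transcribed in G2 and M phase, through MuvB complexes that join B-Myb and Foxm1 and bind the cell cycle homology region (TTTGAA), and through the factor NF-Y, which binds CCAAT boxes.

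RefSeq promoters (build GRCm38.p6) were matched by symbol for 30 of the 37 genes. Those of 4 are shown, whether or not they hold both elements. Cdc25b and Top2a were chosen because they carried the most stable differences described below. Cdk1 and Ccnb2 are the kinase and a cyclin of the central mitotic complex. Each line gives the 250 bases that precede the annotated start, read 5′ to 3′ towards the gene, with capitals for TTTGAA and CCAAT on either strand (TTCAAA and ATTGG on the opposite one).
Cdc25b (chr2:131186698-131186947, plus strand): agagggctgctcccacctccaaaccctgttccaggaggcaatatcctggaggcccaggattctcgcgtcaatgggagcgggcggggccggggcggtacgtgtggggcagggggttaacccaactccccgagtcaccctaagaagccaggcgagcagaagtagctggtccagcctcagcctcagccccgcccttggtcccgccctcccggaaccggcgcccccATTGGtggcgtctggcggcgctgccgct
Top2a (chr11:99024190-99024439, minus strand): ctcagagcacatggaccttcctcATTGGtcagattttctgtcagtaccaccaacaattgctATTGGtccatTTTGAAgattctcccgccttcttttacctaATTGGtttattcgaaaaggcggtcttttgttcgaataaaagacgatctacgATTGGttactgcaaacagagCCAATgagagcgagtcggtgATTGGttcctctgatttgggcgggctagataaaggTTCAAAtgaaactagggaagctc
Cdk1 (chr10:69352913-69353162, minus strand): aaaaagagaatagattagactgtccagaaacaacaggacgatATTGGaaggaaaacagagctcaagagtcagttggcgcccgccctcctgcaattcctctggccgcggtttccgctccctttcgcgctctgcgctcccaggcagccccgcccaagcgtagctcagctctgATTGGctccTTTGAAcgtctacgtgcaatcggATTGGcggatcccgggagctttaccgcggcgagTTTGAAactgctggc
Ccnb2 (chr9:70421555-70421804, minus strand): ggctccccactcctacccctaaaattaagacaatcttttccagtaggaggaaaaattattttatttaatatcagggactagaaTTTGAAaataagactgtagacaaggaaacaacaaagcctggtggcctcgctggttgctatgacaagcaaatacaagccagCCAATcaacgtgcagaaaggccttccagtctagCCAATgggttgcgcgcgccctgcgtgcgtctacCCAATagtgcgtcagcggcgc

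The Top2a window held 6 CCAAT matches and 2 TTTGAA matches, the nearer of them 17 bases from the start, and the Cdk1 window held 3 and 2, with 1 TTTGAA match 9 bases from the start. In Ccnb2 there were 3 CCAAT matches, 82, 49 and 16 bases from the start, and 1 TTTGAA match. That match lay 161 bases from the start, farther out than all 3 CCAAT matches. In Cdc25b there were 1 CCAAT match and 0 TTTGAA matches. Across the matched genes, CCAAT was found for 25 of 30 (83.3%) and in 33.8% of all 32851 promoter windows of that length, and TTTGAA for 11 of 30 (36.7%) and in 16% of all windows. Both motifs stood in the promoters of 11 of the 30 genes, against 5.55% of all windows, and 0 genes had overlapping matches of the 2 motifs. A gene was counted if any of its windows held the motif, while the shares over all promoters are per window. Ect2, Bub3 and Prc1 had more than 1 window, and only 1 window of Prc1 held TTTGAA. A match is a description of the letters and shows no binding.

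There were 29416272 and 34314038 counts over the kept features in Dnm3os libraries 1 and 2, against 39769640 and 35447766 in empty vector libraries 1 and 2. Dnm3os itself had 208 and 260 counts in libraries 1 and 2 of the cells that carry it, and 0 in each empty vector library. That is at least 184-fold higher in Dnm3os cells when 3 counts over both empty vector libraries are taken as the floor, a bound for counting error only. The summed level of 10 macrophage markers was 10697 to 11180 CPM (counts scaled to library size) in Dnm3os libraries, against 9806 to 9958 CPM in empty vector libraries. Lyz2 alone was at 7578 to 8038 CPM in Dnm3os and 6940 to 7089 CPM in empty vector libraries. Of the 9 macrophage markers tested, 4 rose (44.4%, against 6.51% of all features) and 2 fell (22.2%, against 5.75%) by the test below. The changes were 101% for Itgam, 67.7% for Fcgr1, 20.5% for Csf1r, 11.3% for Lyz2, -7.15% for Cd68 and -19.0% for Adgre1. The part of these markers in the results was not tested. Other marker sums were 0 to 0.0292 CPM in Dnm3os against 0.0283 to 0.0502 CPM in empty vector libraries for 6 fibroblast genes, with Col1a2, Col3a1 and Pdgfra at 0. They were 0 to 0.0583 against 0 to 0.0752 CPM for 4 epithelial genes, with Epcam and Cdh1 at 0. For 6 T cell genes the sums were 5.44 to 5.60 against 6.57 to 7.19 CPM, with Cd3e and Cd3g at 0. Most of this was Lck (5.16 to 5.43 against 6.52 to 6.93 CPM, named after its values were seen). For 4 endothelial genes the sums were 0.904 to 1.02 against 0.326 to 0.453 CPM, with 0 of them at 0 in all libraries. Of these, Kdr, at 8 to 22 counts per library, was called higher by the test below (adjusted p = 0.0281 by edgeR).

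Most of the mitotic genes differed little in level between the groups, with fitted differences from -12.7 to 7.70%. At an adjusted p under 0.05 (edgeR's quasi-likelihood test, two-sided, with Benjamini-Hochberg adjustment over all 13172 features), 5 of the 37 were lower in Dnm3os cells, 0 were higher and 32 did not pass. Over all features the same rule called 5.75% lower and 6.51% higher, and among the 6274 features at or above the level of the lowest mitotic gene it called 7.78% lower and 7.08% higher. The lower genes were Cdc25b, Top2a, Cenpf, Mki67 and Anln, with changes of -12.7 to -7.27%. In the higher direction, 3 genes reached an unadjusted p under 0.05 by edgeR, while DESeq2 and limma-voom called 0 at an adjusted p under 0.05. The 5 lower calls became 3 without empty vector library 1, empty vector library 2 or Dnm3os library 1, 2 without Dnm3os library 2, and 3 by DESeq2. The median log2 fold change was -0.023 over the 37 genes and 0.00061 over all features tested. Of the 37, 25 had a log2 fold change below 0 and 12 above, against 6561 and 6611 of all 13172 features tested. In bulk RNA, fewer cells in mitosis and less RNA per mitotic cell cannot be told apart.

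The 37 genes were abundant in both groups. The lowest mean level over the 4 libraries was 29.0 CPM, for Cdc25c, and the highest 551 CPM, for Top2a, which placed all 37 above 52.4% of the features tested. Raw counts per gene and library ran between 905 and 23026. Together the 37 genes summed to 5930 and 5890 CPM in Dnm3os libraries 1 and 2, against 6100.0 and 6052 CPM in empty vector libraries 1 and 2. The group means were 5910 ± 28.0 and 6076 ± 33.8 CPM (SD, n = 2 each), a difference of -2.74%. Without the 5 genes that fell, the sums were 4606 and 4597 CPM in Dnm3os libraries against 4664 and 4618 CPM in empty vector libraries, a difference of -0.859%. Those 5 were picked as lower in these same libraries, so a smaller difference without them was fixed in advance. The groups did not overlap in CPM for 16 genes in the lower direction and 5 in the higher one, where 25.0% and 26.2% of all features were so separated (51.2% in either direction).

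**Figure D1:**
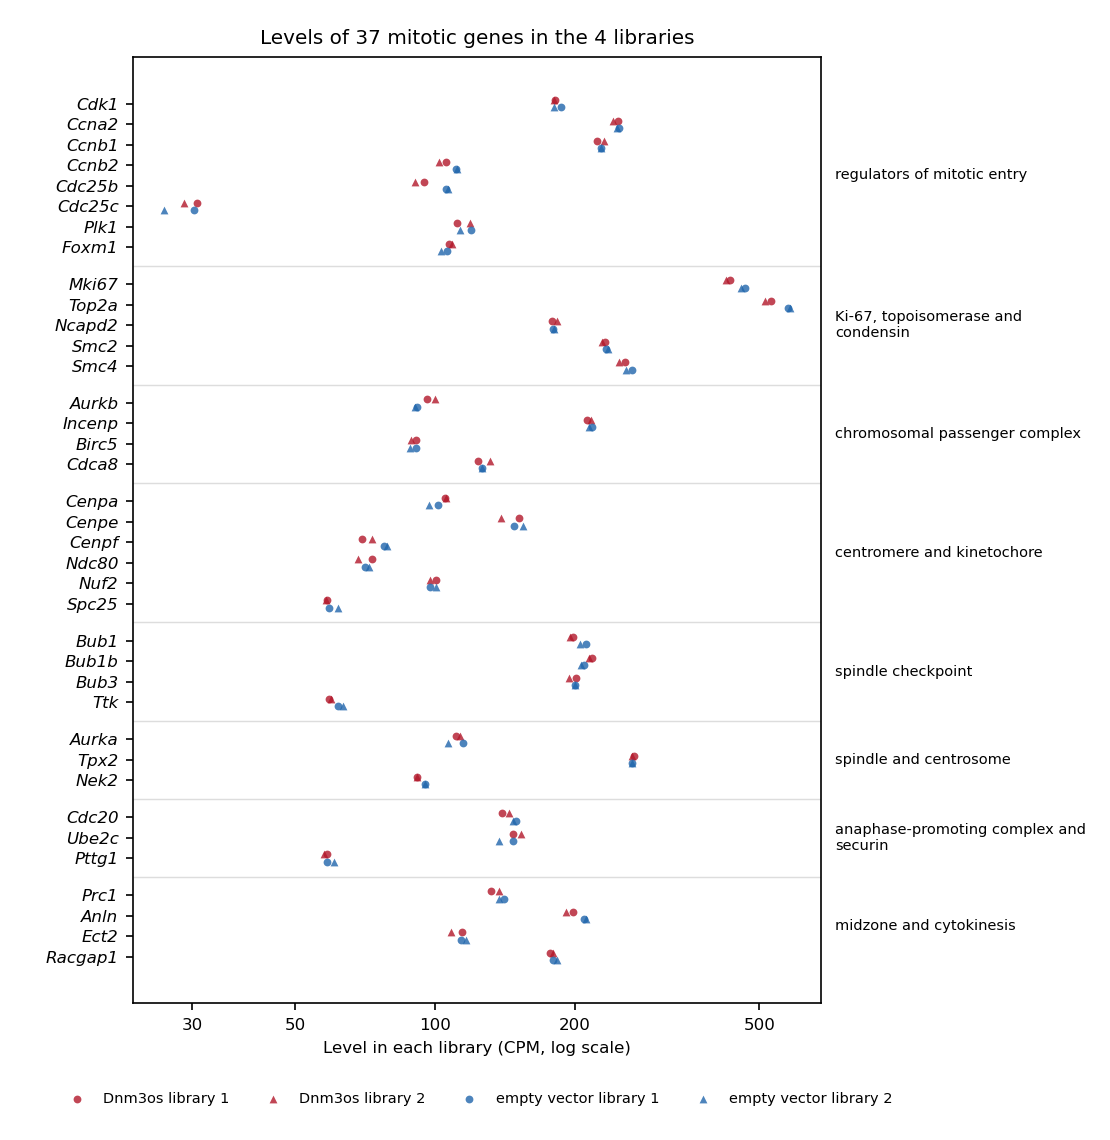
Level of each mitotic gene in CPM (horizontal, log scale) in the 2 Dnm3os libraries (red) and the 2 empty vector libraries (blue), grouped by role down the page. The 4 points of a gene lie close together. Both red points sit left of both blue ones for 16 genes and right of both for 5. The 16 include the 5 genes called lower (Cdc25b, Mki67, Top2a, Cenpf and Anln).

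Per length of transcript the order of levels was almost the same in both groups. On the scale of CPM per kilobase, with GENCODE lengths matched by accession, the highest level was that of Ube2c, the ubiquitin-conjugating enzyme of the anaphase-promoting complex, at 156 in Dnm3os and 147 in empty vector cells. Top2a followed at 100.1 and 111, Birc5 at 94.9 and 94.9, Ccnb1 at 91.5 and 91.5, and Bub3 at 89.1 and 90.5 CPM per kilobase in Dnm3os and empty vector cells. At the lower end stood Cenpe at 18.4 and 19.1, Cdc25c at 15.3 and 14.5, and Cenpf at 6.41 and 7.03 CPM per kilobase, in the same order of groups. The GENCODE models may differ from those counted.

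Among the regulators of mitotic entry, 1 of 8 fell and 7 did not pass. Cdc25b, the phosphatase that first activates cyclin-dependent kinase 1 at the G2 to M transition, had 94.7 and 90.7 CPM in Dnm3os libraries 1 and 2, against 105.5 and 106.6 CPM in empty vector libraries 1 and 2. Both Dnm3os libraries were below both empty vector libraries. Cdc25b fell by 0.20 ± 0.04 on the log2 scale (SE; adjusted p = 0.000638 by edgeR), a change of -12.7% with a 95% interval from -17.1 to -7.94%. Its family member Cdc25c, at 30.8 and 28.8 CPM in Dnm3os and 30.3 and 26.2 CPM in empty vector libraries, overlapped between the groups (log2 fold change 0.072, 95% interval -0.073 to 0.22; adjusted p = 0.616 by edgeR), and had the widest interval of the 37.

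Cdk1 itself had 182 and 180.3 CPM in Dnm3os libraries, against 187 and 181 CPM in empty vector libraries, and the groups overlapped. The difference was -1.50% with a 95% interval from -5.91 to 3.12%. Cyclin B1 (Ccnb1) had 224 and 232 CPM in Dnm3os libraries and 228 and 228 CPM in empty vector libraries, a difference of 0.039% (95% interval -4.43 to 4.72%). The other B-type cyclin of the list, Ccnb2, was at 106 and 102 CPM in Dnm3os against 111 and 112 CPM in empty vector libraries, with no overlap, and missed the threshold at a log2 fold change of -0.096 ± 0.035 (adjusted p = 0.0801 by edgeR). Ccna2, the cyclin of S phase and early mitosis, had a difference of -1.29% (95% interval -5.65 to 3.28%). The polo-like kinase Plk1 (-1.02%, interval -6.28 to 4.54%) and the transcription factor Foxm1 (3.15%, interval -1.94 to 8.50%) did not pass either.

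Of Ki-67, topoisomerase and 3 condensin genes, the first 2 fell. Top2a, the topoisomerase that untangles sister chromatids, was at 530.2 and 515 CPM in Dnm3os libraries 1 and 2, against 577 and 582 CPM in empty vector libraries 1 and 2, and fell by 0.15 ± 0.03 on the log2 scale (adjusted p = 0.00069 by edgeR). That is a change of -9.87% with a 95% interval from -13.5 to -6.12%. Mki67, the Ki-67 protein that coats mitotic chromosomes and marks proliferating cells, was at 431 and 423 CPM in Dnm3os and 466 and 456 CPM in empty vector libraries, and fell by 0.11 ± 0.03 on the log2 scale (adjusted p = 0.0151 by edgeR). For both genes the 2 Dnm3os libraries lay below the 2 empty vector libraries. Mki67 lost its call when empty vector library 1 was left out (adjusted p = 0.127 by edgeR), and likewise for Dnm3os library 1 (0.0667) and Dnm3os library 2 (0.174). The condensin subunits did not pass: Smc2 and Smc4, the ATPase core, were at -1.92% (interval -6.21 to 2.56%) and -3.51% (interval -7.85 to 1.04%), and the regulatory subunit Ncapd2 at 0.883% (interval -3.57 to 5.55%).

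0 of the 4 genes of the chromosomal passenger complex, which corrects faulty kinetochore attachments and guides cytokinesis, passed the test. Its kinase Aurkb was at 96.1 and 100.2 CPM in Dnm3os libraries, against 91.4 and 90.9 CPM in empty vector libraries. These values did not overlap, and the log2 fold change of 0.11 ± 0.04 missed the threshold (adjusted p = 0.0638 by edgeR). Aurkb had the highest log2 fold change of the 37. The scaffold Incenp had a difference of -0.721% (95% interval -5.13 to 3.89%), survivin (Birc5) by -0.0030% (interval -5.24 to 5.53%), and borealin (Cdca8) by 0.907% (interval -4.01 to 6.07%).

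Of 6 centromere and kinetochore genes, 1 fell and 5 did not pass. Cenpf, a large coiled-coil protein of the outer kinetochore, was at 69.6 and 73.2 CPM in Dnm3os libraries and 77.6 and 78.9 CPM in empty vector libraries, with no overlap. It fell by 0.13 ± 0.04 on the log2 scale (adjusted p = 0.0357 by edgeR). Leaving out empty vector library 2 ended this call (adjusted p = 0.139 by edgeR), as did leaving out Dnm3os library 1 (0.314) or Dnm3os library 2 (0.0641), and it was not made by DESeq2 (0.255) or by limma-voom (0.0685). The kinetochore motor Cenpe, at 152 and 139 CPM in Dnm3os and 148 and 155 CPM in empty vector libraries, overlapped between the groups.

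Cenpa, the histone H3 variant that marks centromeres, was at 105.3 and 105.8 CPM in Dnm3os and 101 and 97.2 CPM in empty vector libraries (log2 fold change 0.087 ± 0.036; adjusted p = 0.137 by edgeR). The microtubule-binding Ndc80 complex had 0 calls among the 3 subunits listed: Ndc80 had a difference of -0.994% (95% interval -6.88 to 5.26%), Nuf2 by 0.206% (interval -4.90 to 5.58%) and Spc25 by -3.43% (interval -9.32 to 2.84%).

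None of the 4 spindle checkpoint genes passed. Bub1, a kinase that builds the checkpoint platform on kinetochores, was at 198 and 195 CPM in Dnm3os libraries, against 211 and 205 CPM in empty vector libraries (log2 fold change -0.083 ± 0.032; adjusted p = 0.101 by edgeR). Its relative Bub1b, the inhibitor BubR1 of the anaphase-promoting complex, lay on the other side at 218 and 215 CPM in Dnm3os and 210 and 207 CPM in empty vector libraries (0.056 ± 0.031; adjusted p = 0.301 by edgeR). In neither gene did the groups overlap, and neither difference passed. Bub3, their shared binding partner, had a difference of -1.58% (95% interval -6.00 to 3.04%), and Ttk, the checkpoint kinase Mps1, by -4.87% (interval -10.5 to 1.15%).

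The 3 spindle and centrosome genes did not pass. Aurka, the kinase of centrosome maturation, was at 111 and 113 CPM in Dnm3os and 115 and 107 CPM in empty vector libraries, and overlapped. Tpx2, which activates Aurka on the spindle, was at 269 and 266 CPM in Dnm3os and 266 and 266 CPM in empty vector libraries, a difference of 0.403% (95% interval -3.92 to 4.93%). Nek2, the kinase that parts the centrosomes, was at 91.3 and 91.4 CPM in Dnm3os and 95.2 and 95.2 CPM in empty vector libraries (log2 fold change -0.059 ± 0.036; adjusted p = 0.367 by edgeR).

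Genes of anaphase onset did not pass in any of 3 cases. Cdc20, the activator of the anaphase-promoting complex, was at 140 and 145 CPM in Dnm3os and 149 and 147 CPM in empty vector libraries (log2 fold change -0.061 ± 0.032; adjusted p = 0.261 by edgeR). Ube2c was at 147 and 154 CPM in Dnm3os libraries, against 147 and 137 CPM in empty vector libraries (0.081 ± 0.036; adjusted p = 0.17 by edgeR). It was called higher when empty vector library 1 was left out (0.13; adjusted p = 0.0293 by edgeR). Securin, encoded by Pttg1, had a difference of -2.63% (95% interval -8.56 to 3.69%). Across the 4 role groups with 0 calls, Aurkb, Bub1 and Ube2c had an unadjusted p under 0.05 by edgeR, and neither DESeq2 nor limma-voom made a call.

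All 4 midzone and cytokinesis genes had log2 fold changes below 0, as had 6561 of all 13172 features tested, and 1 of the 4 fell. Anln, the anillin that links actin and septins in the cleavage furrow, was at 198 and 192 CPM in Dnm3os libraries, against 209 and 211 CPM in empty vector libraries. The groups did not overlap, and it fell by 0.11 ± 0.03 on the log2 scale (adjusted p = 0.026 by edgeR). Anln lost its call when empty vector library 1 was dropped (adjusted p = 0.0649 by edgeR), with empty vector library 2 dropped (0.0672), with Dnm3os library 2 dropped (0.27), and by DESeq2 (0.12). The microtubule bundler Prc1 (-3.12%, 95% interval -7.59 to 1.57%), the cytokinesis regulator Ect2 (-3.78%, interval -8.66 to 1.35%) and its partner Racgap1 (-1.94%, interval -6.27 to 2.58%) did not pass.

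**Figure D2:**
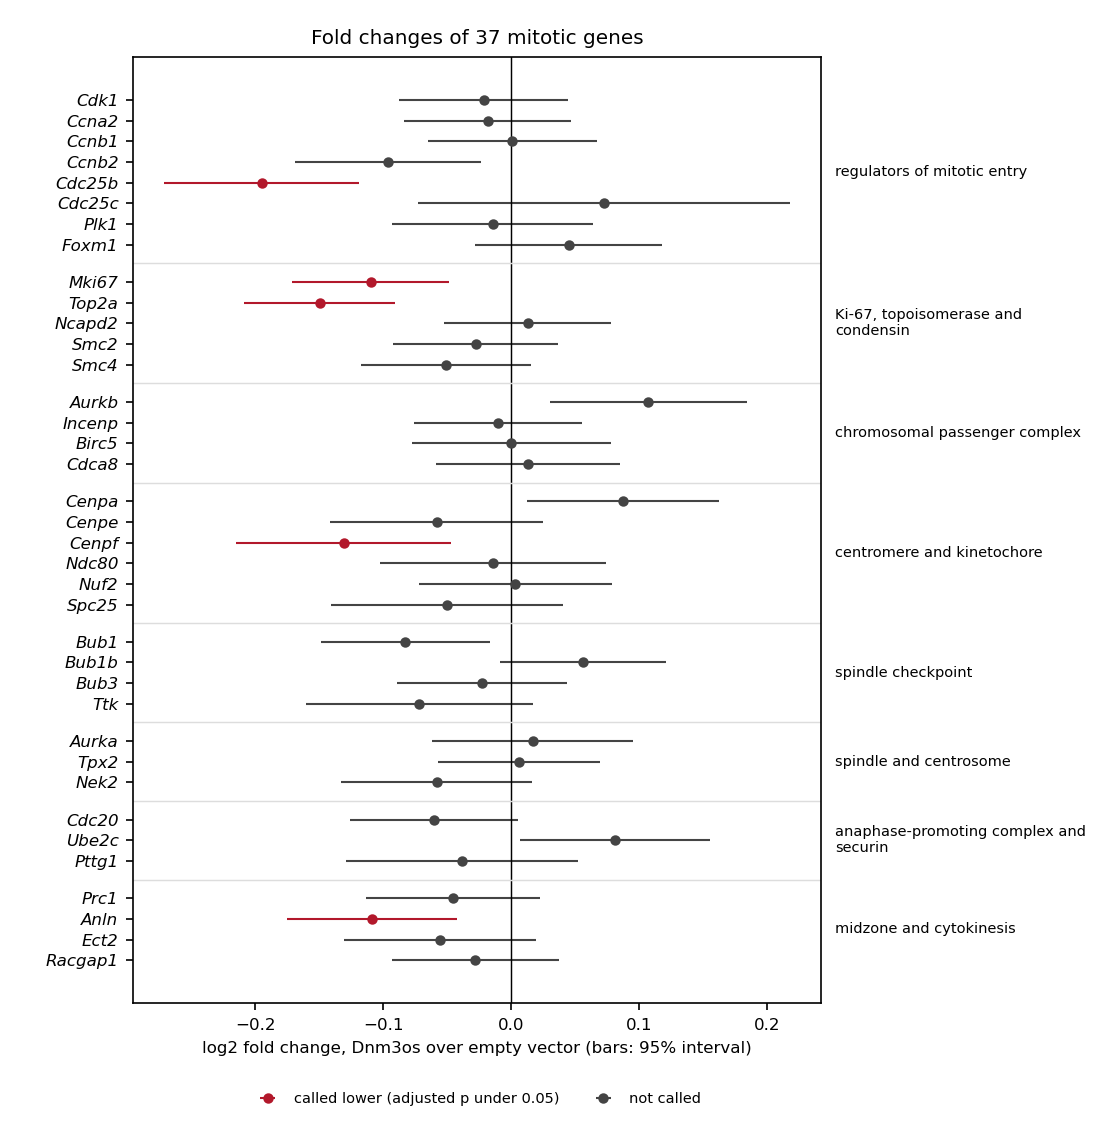
Log2 fold change of each mitotic gene, Dnm3os over empty vector, with its 95% interval from the edgeR fit (bars), grouped by role down the page. The 5 genes called lower are red; every interval lies between -0.27 and 0.22.

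These intervals show what size of difference the libraries could hide. Over the 37 genes the 95% intervals, which are not adjusted for the number of genes, ran from -17.1% at the lowest bound to 16.3% at the highest, and 26 genes had an interval wholly within 10% of no change in either direction on the ratio scale (0.9 to 1.1). The SE of the log2 fold change was between 0.028 and 0.070, with a median of 0.035. Among features at or above the level of the lowest mitotic gene, 1.04% were called lower by 20% or more, and 0 of the 37 mitotic genes were. A gene that did not pass is not shown to be equal in the 2 groups.

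Cdc25b and Top2a kept their calls under all 15 other settings tried, over log2 fold changes from -0.23 to -0.16 and from -0.17 to -0.13. Mki67 was called under 11, Anln under 9 and Cenpf under 8 of the 15. Of the 32 genes not called, 30 were called under 0 of the 15, Ccnb2 under 2 (no filter on low counts, and offsets for transcript length) and Ube2c under 1.

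**Figure D3:**
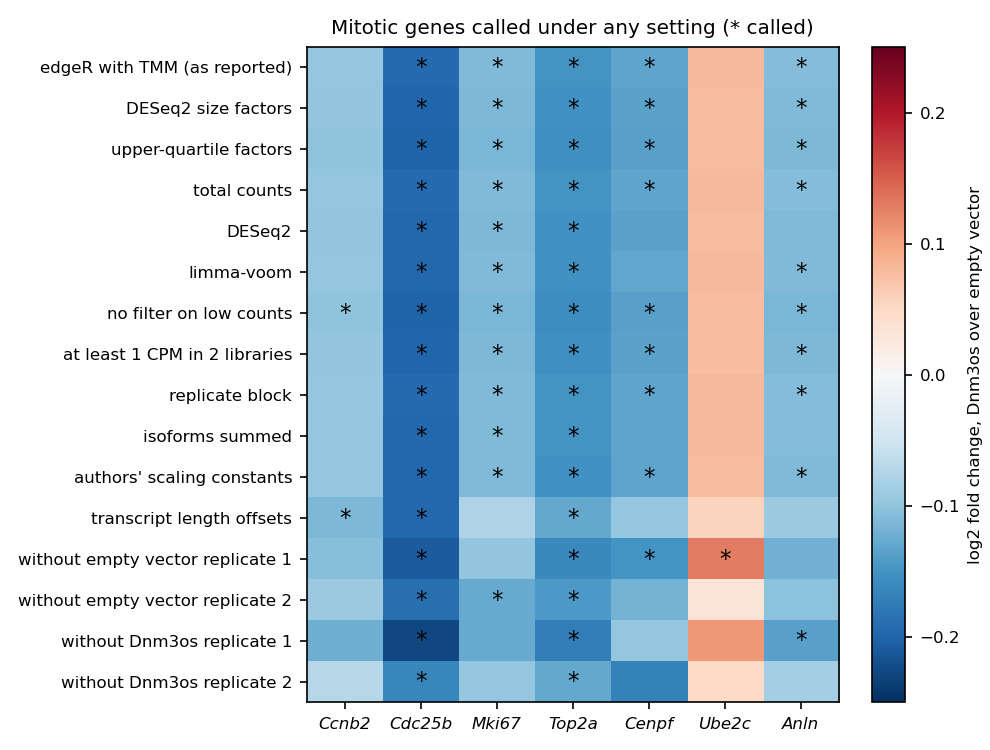
Log2 fold change, Dnm3os over empty vector (colour), of the 7 mitotic genes called under at least 1 setting (columns) under each setting of the test (down the page). An asterisk marks an adjusted p under 0.05; Cdc25b and Top2a carry it in every line.

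Of the 5 genes that fell, 4 had transcripts of 4605 bases or more. Cenpf was matched to 11130 bases, Mki67 to 10061, Top2a to 5221, Anln to 4605 and Cdc25b to 3089. Cenpe (7910 bases), Smc2 (5404), Foxm1 (4652) and Ncapd2 (4629) were longer than Anln and were not called. Across the 37 genes, log2 fold change and transcript length had a Spearman correlation of -0.39, a description over genes that share the same 4 libraries. Over the 6142 features with a length at or above the level of the lowest mitotic gene, the Spearman correlation was -0.23. Their median log2 fold change was 0.033 for 416 features of up to 1000 bases and -0.033 for 807 features over 6000 bases. Over all features tested that had a length, the correlation was -0.12. With the GC content of the transcript in place of length, it was 0.38 over the 37 genes and -0.016 over the 6142 features. With offsets for length in each library, an alternative chosen after the data were seen, 3 mitotic genes were lower. Of these, Cdc25b (-0.20; adjusted p = 0.000399 by edgeR) and Top2a (-0.13) were among the 5, and Ccnb2 (-0.11) was not. Mki67 (-0.077; adjusted p = 0.114 by edgeR), Cenpf (-0.096; adjusted p = 0.146) and Anln (-0.092; adjusted p = 0.0565) lost their calls there.

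**Figure D4:**
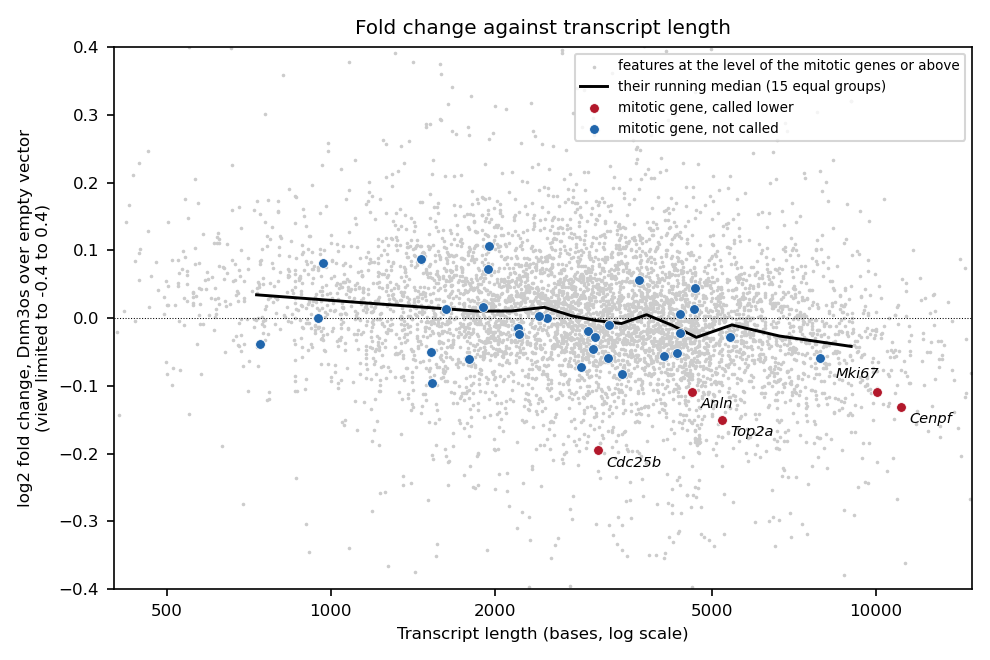
Log2 fold change, Dnm3os over empty vector, against transcript length in bases (log scale) for the mitotic genes (blue; red where called lower) and for all features at their level or above (grey), with the running median of the grey points. The grey median slopes down with length, and 4 of the 5 red points lie at 4605 bases or more, where blue points lie too.

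For 14 of the 37 genes the tables held more than 1 RefSeq transcript, and the transcripts of a gene share most of their counts, so their ratios are not independent of each other. Summing the isoforms of every gene counts such shared reads more than once. With this sum, Cdc25b, Mki67 and Top2a kept their calls, while Cenpf (adjusted p = 0.0848 by edgeR) and Anln (adjusted p = 0.0669 by edgeR) lost theirs. Cenpf, Anln, Mki67 and Top2a each had only 1 transcript, so summing left their own counts unchanged. In that fit 4.72% of all features were called lower, against 5.75% as reported. The span of an annotated gene, introns included, overlaps that of 15 of the 37 on the genome. For 10 of these the overlapping gene is in the count tables, such as Exosc9 for Ccna2, Cstf1 for Aurka, Elovl1 for Cdc20 and Rccd1 for Prc1. The strand setting is not given in the sources used here, so reads in bases that exons of both genes share could not be told apart. Whether exons overlap was not examined. Of the 5 that fell, Anln overlaps 9530077C05Rik, which is in the tables, and Top2a overlaps LOC115487886, which is not among the counted genes.

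Other genes of the cell cycle came from lists chosen beside the 37. Of all features tested, 6.51% were called higher and 5.75% lower. At or above the level of the lowest mitotic gene, the shares were 7.08% and 7.78%. By list, 0 to 7.41% were called higher and 0 to 20% lower, so several lists lay near these shares. Of 27 other kinetochore and checkpoint genes, 2 rose (7.41%) and 2 fell (7.41%), with a median log2 fold change of 0.0079. Cenpc1, which anchors the kinetochore to centromeric chromatin, was at 115 and 109.8 CPM in Dnm3os and 131 and 129 CPM in empty vector libraries, and fell by 0.21 ± 0.03 on the log2 scale (adjusted p = 0.000162 by edgeR), a call kept under all 15 alternatives. The checkpoint protein Kntc1 also fell (-0.12 ± 0.04), while the kinetochore genes Zwint (0.14 ± 0.04) and Cenpw (0.27 ± 0.07) rose. Neither Kntc1 nor Zwint was called when a Dnm3os library (1 or 2) or empty vector library 2 was dropped. Cenpw lost its call with empty vector library 2 or Dnm3os library 1 dropped.

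Among 18 other spindle and centrosome genes, 1 rose and 1 fell (median -0.038): Clasp1, a microtubule plus-end protein (0.22 ± 0.05), and the centrosome scaffold Cep192 (-0.12 ± 0.04). Clasp1 was lost without Dnm3os library 1, and Cep192 was called in 1 of 4 fits that dropped a library (that without empty vector library 1). Cohesin and other condensin genes had 2 of 17 lower and 0 higher (median -0.043), the condensin subunit Ncapg (-0.14 ± 0.03) and the cohesin subunit Stag2 (-0.11 ± 0.03). Ncapg was lost without Dnm3os library 2, and Stag2 without empty vector library 2 or Dnm3os library 2. In the higher direction 0 genes of this list had an unadjusted p under 0.05 by edgeR, and 0 were called by DESeq2 or limma-voom.

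0 of 15 other anaphase-promoting complex genes passed in either direction (median -0.015). At an unadjusted p under 0.05 by edgeR, 0 were higher and 1 was lower. At an adjusted p under 0.05, DESeq2 and limma-voom called 0. Among 12 other regulators of mitotic entry 1 fell, the F-box cyclin Ccnf, at 96.7 and 94.6 CPM in Dnm3os and 108.9 and 107.4 CPM in empty vector libraries (-0.18 ± 0.04; adjusted p = 0.00119 by edgeR). Of 14 other cytokinesis genes 1 rose, the membrane-scission subunit Chmp4b (0.10 ± 0.03), called in 1 of 4 fits with a library dropped (that without empty vector library 2). The DREAM and MuvB complexes, which switch mitotic promoters off and on, had 1 of 12 genes lower, the E2F partner Tfdp2 (-0.28 ± 0.09), called in 1 of 4 such fits (that without empty vector library 1). By DESeq2, Zwint, Kntc1, Cenpw, Cep192, Clasp1, Stag2, Chmp4b and Tfdp2 were not called.

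A larger difference was found among the G1 genes. Ccnd2, encoding cyclin D2, which drives cells from G1 towards S phase, was at 19.5 and 20.3 CPM in Dnm3os libraries, against 33.4 and 35.3 CPM in empty vector libraries. It fell by 0.78 ± 0.06 on the log2 scale (adjusted p = 4.01e-09 by edgeR), 0.580 of the empty vector level, and was called under all 15 alternatives. Ccnd1, encoding cyclin D1, was at 716 and 721 CPM in Dnm3os and 725 and 699 CPM in empty vector libraries and did not pass (0.013, 95% interval -0.044 to 0.070; named after its values were seen). Of 15 G1 genes tested, 3 fell and 0 rose (median -0.054), the others being Mdm2, the ubiquitin ligase of p53 (-0.16 ± 0.03), and the kinase Cdk6 (-0.096 ± 0.031). Cdk6 was called in 0 of 4 fits that left out a library, nor by DESeq2. In the higher direction 0 G1 genes had an unadjusted p under 0.05 by edgeR, with 0 calls by DESeq2 or limma-voom. Of 33 DNA replication genes, 2 fell and 0 rose (median -0.027): Pcna, the sliding clamp (-0.098 ± 0.028), and Pole, a polymerase subunit (-0.15 ± 0.04). Pcna was lost in each of the 4 fits that left out a library, and Pole without empty vector library 2 or Dnm3os library 2 and by DESeq2 (adjusted p = 0.0873). In the higher direction 1 replication gene had an unadjusted p under 0.05 by edgeR, with 0 calls by DESeq2 or limma-voom.

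**Figure D5:**
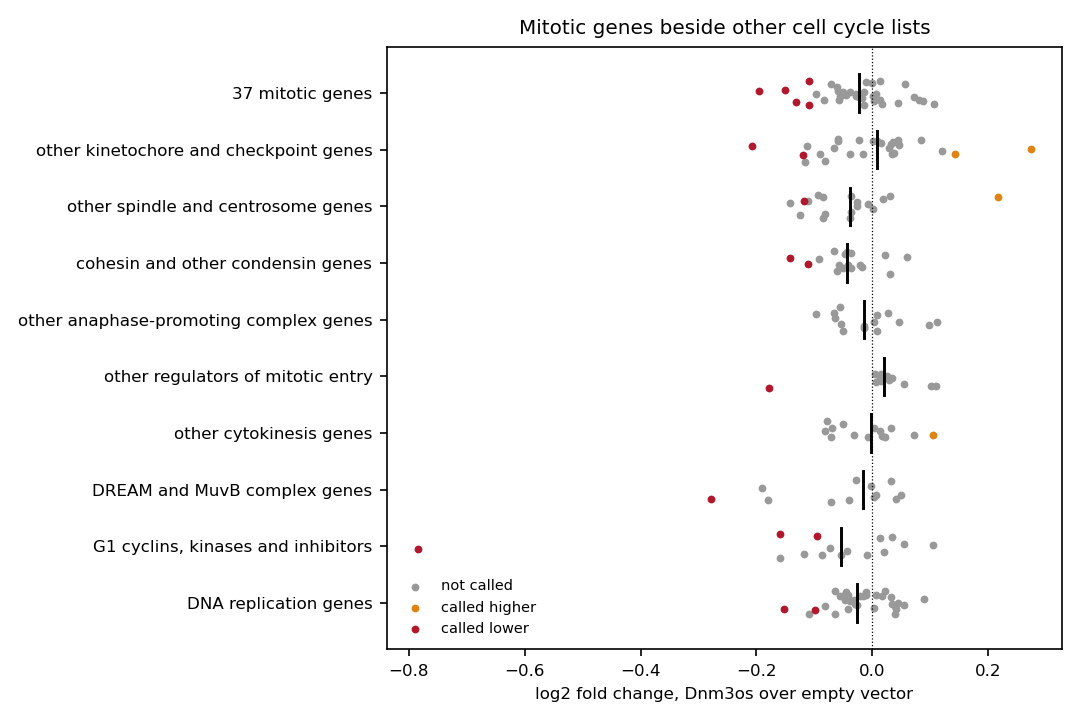
Log2 fold change, Dnm3os over empty vector, of the mitotic genes and of 9 other cell cycle lists (1 point per gene, spread vertically at random; black bar, median). Points called lower are red and higher orange; Ccnd2, at -0.78, lies apart from the rest.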

How the data were processed

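Poly(A) RNA libraries of RAW 264.7 cells were sequenced on an Illumina HiSeq instrument, per the labels. The authors deposited, per the file headers, raw counts for 35786 RefSeq transcripts and a normalized signal, found to be the raw count multiplied by a library-specific constant. The submitters' processing notes name TopHat, Bowtie2, DESeq2 and mm9; for the read counter, the annotation and strandedness, what was used is not given in the sources used here.

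Transcripts were named from RefSeq (35499) and GENCODE (178) tables; 109 unnamed ones, at 0.246 to 0.276% of counts, stayed under their own ID except 45S ribosomal RNA, which was left out. Each gene was represented by its transcript of highest mean count. The counts not kept were 39.4% of the total over transcripts, a total in which reads shared by transcripts of a gene recur. After filterByExpr and TMM scaling (factors from 0.997 to 1.003), edgeR 4.0.16 in R 4.3.3 ran glmQLFit (robust) and glmQLFTest, Dnm3os against empty vector, 2 libraries each, with Benjamini-Hochberg adjustment over 13172 features. The SE was taken as |log2 fold change| divided by sqrt(F), and 95% intervals use its t quantile. Alternatives were other scalings and filters, DESeq2 1.42.0, limma-voom (limma 3.58.1), a replicate block, isoforms summed, each library left out and, chosen later, offsets for transcript length.

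The mitotic genes and the lists were chosen with earlier results of these data known. Named were all 37, Dnm3os and up to 3 called genes per list and direction. Results on 1 marker list are not reported here. No coordinate is taken from the mm9 files; promoter positions are those of the RefSeq table.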

Additional observations from a re-analysis of the deposited data

How the results depend on the processing

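The 5 mitotic genes called lower became 3 by DESeq2, 3 with isoforms summed and 3 with offsets for transcript length, and ranged from 2 to 3 when each library was left out in turn. Genes called higher were 0 to 1 in those 4 fits, and 0 in every other setting. The median log2 fold change of the 37 stayed below 0 in all 15 alternatives, from -0.039 to -0.025 with a library left out, while the signs of 23 of the 37 genes held in all 15. The cause of the lost calls was not tested. Over all features, genes higher in Dnm3os numbered 404 by DESeq2 against 858 by edgeR, and genes lower in Dnm3os 362 against 758. Leaving out a library gave 465 to 808 higher and 396 to 786 lower. Dnm3os was called higher under all 15 alternatives. Where a library was dropped, the remaining one of that group was assumed to vary as the other group does.

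The labels number the libraries 1 and 2 in each group but do not say that a number marks a shared batch. Deviations of same-numbered libraries correlated at -0.063 over 13172 features. With a replicate block, 5 mitotic genes were lower and 0 higher, with a median log2 fold change of -0.023, while Chmp4b (adjusted p = 0.0558 by edgeR), Cdk6 (0.0929) and Pcna (0.0579) lost their calls. The block changed no other call of a named gene. With 2 libraries per group, differences of about the SE (median 0.035) cannot be resolved. Differences well above the SE also missed the threshold, such as those of Aurkb (0.11 ± 0.04) and Ccnb2 (-0.096 ± 0.035).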
